A study of Rattus norvegicus with 15 samples.

Results

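Acetylcholine acts on 2 families of receptors, and 10 of their genes were followed here through rat hippocampal RNA sequencing libraries. The genes were chosen by symbol: the muscarinic receptor genes Chrm1, Chrm2, Chrm3 and Chrm4 and the nicotinic subunit genes Chrna3, Chrna4, Chrna5, Chrna7, Chrnb2 and Chrnb4. Each of the 10 has 1 transcript record among the 18278 records of the count tables. In the stimulated group (VNS), an implanted device drove the vagus nerve, the main autonomic link of viscera and brainstem, for 30 min daily over 4 consecutive days. Control animals had a sham implant. The hippocampal libraries, 4 VNS and 3 control, came from rats that were also given a novelty preference test of 10 min on days 2 to 4. Every rat was killed directly after the stimulation of day 4. The cortex had 4 VNS and 4 control libraries. The labels give no strain, sex or age for any group, and they do not tie libraries to litters or days, so p-values measure the spread between these libraries only.

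Muscarinic receptors are G protein-coupled. Chrm1 and Chrm3 encode receptors that act through Gq and phospholipase C and raise the excitability of pyramidal neurons, whereas the products of Chrm2 and Chrm4 act through Gi and Go and often sit on nerve terminals, where they limit transmitter release. Nicotinic receptors are cation channels built from several subunits. Chrna4 and Chrnb2 encode the subunits of the main high-affinity brain receptor, Chrna7 forms channels by itself and is abundant in hippocampus, Chrnb4 and Chrna3 are best known from autonomic ganglia and the medial habenula, and Chrna5 encodes an accessory subunit. Cholinergic fibres reach the hippocampus mainly from the medial septum and diagonal band.

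The 3 control libraries did not share a regional identity, and this touches every comparison below. Neurod6, a transcription factor gene of forebrain excitatory neurons, measured 0.652 CPM (CPM being counts scaled to a common library size) in control library 1 and 1.05 CPM in control library 2. Control library 3 had 81.4 CPM of it, and the VNS libraries ranged from 58.9 to 207.4 CPM. Summed over 8 forebrain excitatory markers, control libraries 1 and 2 held 635.3 and 220.4 CPM and the other 5 libraries 3349 to 5226 CPM, with no marker at 0 counts in any library. The 8 thalamic markers with a record summed to 1970 and 595.7 CPM in control libraries 1 and 2 and to 122.3 to 278.5 CPM elsewhere, and 10 brainstem and midbrain markers to 158.7 and 97.2 CPM against 8.02 to 23.9 CPM. In the hippocampal pyramidal and granule cell markers the sums were 342.9 and 210.3 CPM against 743.8 to 1277 CPM, and in oligodendrocyte markers 7575 and 6227 CPM against 2007 to 4859 CPM. GABA interneuron markers summed to 712.9 and 877.9 CPM against 371.6 to 476.7 CPM, and astrocyte markers to 1174 and 1016 CPM against 1480 to 2525 CPM. In every library 11 of the 15 astrocyte records and 5 of the 13 oligodendrocyte records were at 0 counts. The sums of these lists therefore rest on their remaining records. Striatal projection neuron markers were at 299.0 CPM in control library 1 and 126.1 CPM in control library 2, against 139.5 to 175.3 CPM elsewhere. Of the thalamic markers Gbx2 was at 0 counts in VNS libraries 3 and 4 and control library 3, and of the brainstem markers Gata3 was at 0 in VNS libraries 1 and 4 and control library 3. The part of these marker differences in the receptor values was not tested. The labelled tissue was not borne out by its markers in those 2 libraries. They are described below as control libraries 1 and 2, beside the 5 libraries in which Neurod6 reached 5 CPM. Because that split rests on a measured value, it was given no test of its own. The fit without control library 3, given below, sets these 2 libraries against the VNS libraries, so its p-values do not count as support. Hippocampal libraries held 16728486 to 51463555 counts, of which 7.11% to 73.1% fell on ribosomal RNA records, the highest share in VNS library 3. The 10 receptor records together held 1311 counts in that library and 6030 to 20666 in the others.

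The promoters of 4 of these genes are printed because the results turn on them: Chrm1 and Chrm4, which were low in control libraries 1 and 2, and Chrna4 and Chrm2, which were high there. The sequences are from RefSeq (build GRCr8) and run 5′ to 3′ from 250 bases before to 50 bases after the annotated start. They lie at chr1:214996109-214996408 (plus strand), chr3:98348830-98349129 (plus), chr3:188534477-188534776 (minus) and chr4:65982200-65982499 (plus), in that order. Capitals mark the E-box letters CANNTG, a hexamer bound by basic helix-loop-helix factors. It was searched on both strands, and it reads the same way on either.
Chrm1: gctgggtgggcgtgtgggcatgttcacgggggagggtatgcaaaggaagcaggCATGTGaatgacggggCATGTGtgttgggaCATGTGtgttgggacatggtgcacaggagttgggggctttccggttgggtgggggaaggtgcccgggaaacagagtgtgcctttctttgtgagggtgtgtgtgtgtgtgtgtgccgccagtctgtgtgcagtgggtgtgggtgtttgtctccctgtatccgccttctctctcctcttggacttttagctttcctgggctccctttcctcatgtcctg
Chrm4: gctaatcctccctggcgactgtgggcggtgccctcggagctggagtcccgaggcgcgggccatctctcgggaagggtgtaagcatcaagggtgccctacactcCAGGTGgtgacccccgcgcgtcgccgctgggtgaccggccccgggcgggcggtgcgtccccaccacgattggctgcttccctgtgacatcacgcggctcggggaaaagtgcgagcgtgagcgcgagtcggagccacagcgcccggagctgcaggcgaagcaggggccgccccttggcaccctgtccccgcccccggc
Chrna4: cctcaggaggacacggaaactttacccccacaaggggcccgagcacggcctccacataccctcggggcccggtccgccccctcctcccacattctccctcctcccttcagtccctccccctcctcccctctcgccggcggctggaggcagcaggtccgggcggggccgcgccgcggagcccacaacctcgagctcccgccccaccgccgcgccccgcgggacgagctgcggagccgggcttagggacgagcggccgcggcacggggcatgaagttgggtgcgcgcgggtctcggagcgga
Chrm2: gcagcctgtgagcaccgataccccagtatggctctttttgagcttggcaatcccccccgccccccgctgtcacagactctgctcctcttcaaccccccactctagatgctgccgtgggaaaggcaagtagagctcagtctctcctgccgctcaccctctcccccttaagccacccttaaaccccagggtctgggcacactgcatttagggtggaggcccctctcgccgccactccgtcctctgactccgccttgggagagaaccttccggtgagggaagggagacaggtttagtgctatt
The Chrm1 window held 3 such hexamers and that of Chrm4 held 1, while the windows of Chrna4 and Chrm2 held 0. Of the other 6 genes, Chrm3, which was also low in control libraries 1 and 2, held 4. Chrna3, Chrna7 and Chrnb2 held 2 each, Chrnb4 held 1 and Chrna5 held 0. Chrnb2, with 2 hexamers, lay above the other libraries in control libraries 1 and 2, though only by 1.01-fold in control library 2. Chrna5, with 0, was not set apart in those libraries, because VNS library 1 was lower, at 2.74 CPM. Of 33469 promoters of the same length, 72.1% held at least 1. GC content was 57.7% for Chrm1, 72.0% for Chrm4, 74.7% for Chrna4 and 60.3% for Chrm2, against a median of 51.7% over all promoters. These counts describe letters only.

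The first question was which receptor genes differed between VNS and control hippocampus. None of the 10 passed with edgeR's quasi-likelihood test, and neither did any of the 12728 records tested (percent called 0). An unadjusted p under 0.05 was reached by 1537 records (12.1%) with this test, by 1906 with DESeq2 and by 1883 (14.8%) with limma-voom. At that level, 2 of the 10 receptor records were lower after VNS and 0 were higher, where 7.28% of all tested records were lower and 4.79% higher. The median log2 fold change of the 10 genes, VNS minus control, was 0.32, and that of all tested records was -0.01. The VNS and control libraries overlapped for each of the 10 genes, and were apart for 9.28% of all tested records. DESeq2 called 17 records (0.134%), among them 0 of these receptors. It gave Chrm1 no adjusted p, and the smallest of the other receptors was 0.10.

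Chrm1, the main Gq-coupled muscarinic receptor of forebrain pyramidal neurons, showed the widest range of the 10. Its record (NM_080773) is a single block on chromosome 1 from 231819886 to 231821268 (rn5, plus strand). VNS libraries 1 to 4 gave 110.1, 87.2, 89.6 and 94.7 CPM, and control libraries 1 to 3 gave 3.52, 0.634 and 91.7 CPM. Control library 3 thus lay among the VNS libraries, and the other controls lay far below all 5. The lowest of those 5 libraries was 24.8-fold above control library 1 and 137.5-fold above control library 2, while the highest and the lowest of the 5 differed 1.26-fold. VNS libraries averaged 95.4 ± 10.3 CPM (SD, n = 4) and controls 31.9 ± 51.7 CPM (SD, n = 3). The fitted log2 fold change was 1.58 with an SE of 1.27 (adjusted p = 0.56). The counts behind the lowest value were 35 in control library 2, against 441 in VNS library 3, the shallowest.

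Chrm4, a Gi-coupled receptor also abundant in striatal projection neurons, followed the same order at lower levels. Its record (NM_031547) lies on chromosome 3 from 87531940 to 87539676. VNS libraries 1 to 4 gave 16.0, 22.1, 31.5 and 26.7 CPM, and control libraries 1 to 3 gave 4.58, 1.45 and 21.5 CPM. Control libraries 1 and 2 were below every other library, by at least 3.49-fold and 11.0-fold, and control library 3 was inside the VNS range. The log2 fold change was 1.38 (SE 0.77, adjusted p = 0.43). Chrm3, the other Gq-coupled member, moved less. Its record (NM_012527) spans 65753665 to 66217211 on chromosome 17. VNS libraries 1 to 4 gave 94.8, 65.6, 61.0 and 67.0 CPM, and control libraries 1 to 3 gave 22.2, 49.6 and 80.0 CPM. Control libraries 1 and 2 were again the lowest, but control library 2 was only 1.23-fold below the nearest of the other 5. The log2 fold change of Chrm3 was 0.51 (SE 0.38, adjusted p = 0.53).

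Chrm2, a Gi-coupled autoreceptor of cholinergic terminals that is also expressed in thalamus and brainstem, ran the other way. Its record (NM_031016) spans 63803012 to 63915520 on chromosome 4. VNS libraries 1 to 4 gave 2.59, 3.74, 4.47 and 5.82 CPM, and control libraries 1 to 3 gave 13.2, 21.0 and 4.70 CPM. Control libraries 1 and 2 exceeded the highest of the other 5 by 2.27-fold and 3.60-fold, and control library 3 lay within the VNS range. This gene had the smallest p of the 10, with a fitted log2 difference of -1.65 (SE 0.48), and it did not pass (adjusted p = 0.40). The means were 4.16 ± 1.35 CPM after VNS (SD, n = 4) and 13.0 ± 8.13 CPM in controls (SD, n = 3).

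**Figure D1:**
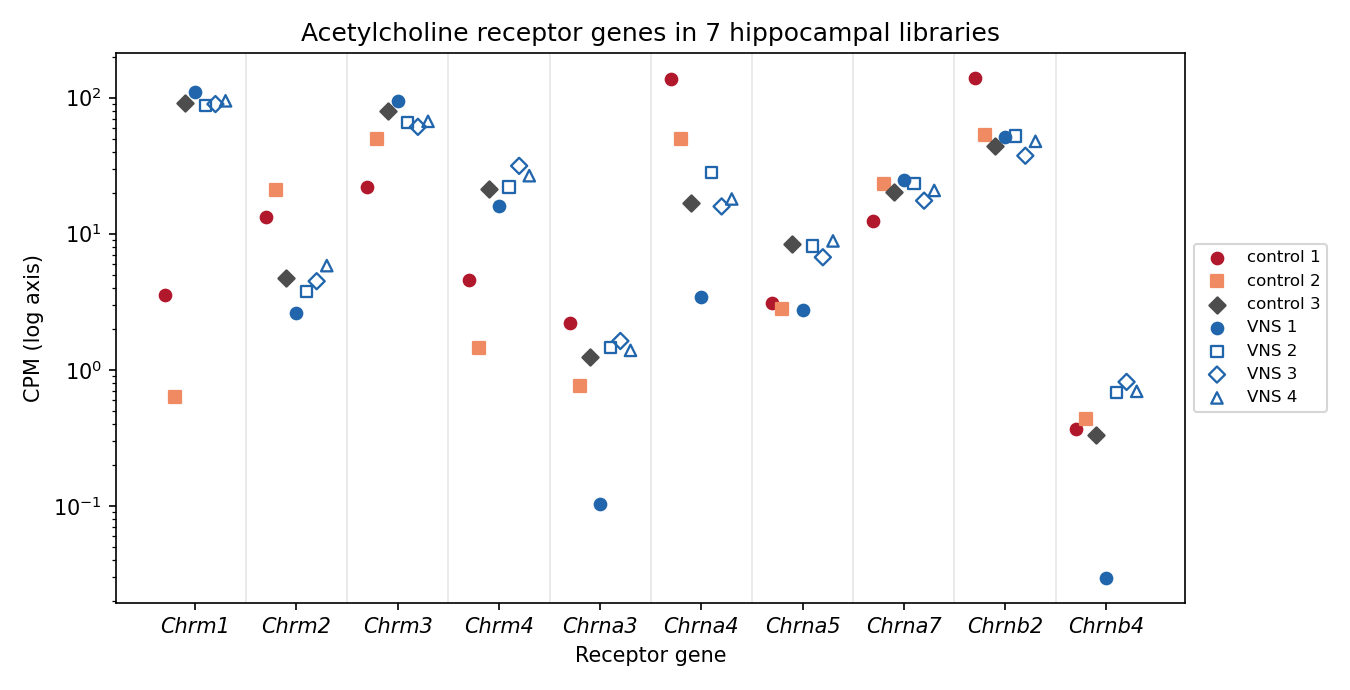
CPM (log axis) of the 10 receptor genes, with 1 point for each of the 7 hippocampal libraries. For Chrm1, control libraries 1 and 2 stand at 3.52 and 0.634 CPM below a tight group of 5 at 87.2 to 110.1 CPM, and for Chrna4 they stand above the other 5.

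Among the nicotinic genes, Chrna4 differed most between libraries with and without Neurod6. Its record (NM_024354) lies on chromosome 3 from 180243234 to 180258017 (minus strand). Chrna4 reached 3.45, 28.3, 15.9 and 18.0 CPM across VNS libraries 1 to 4, against 136.8, 49.7 and 16.7 CPM across control libraries 1 to 3. Control libraries 1 and 2 exceeded all others, by 4.84-fold and 1.76-fold over the highest of them. Within the other 5 libraries the gene still varied 8.19-fold, because VNS library 1 was far lower than the rest. The log2 fold change was -2.05 (SE 0.78, adjusted p = 0.40).

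Chrnb2, the partner subunit of Chrna4, was high in 1 library only. Its record (NM_019297) lies on chromosome 2 from 208511421 to 208519629. Its levels were 51.7, 52.2, 37.4 and 47.7 CPM across VNS libraries 1 to 4, against 139.5, 53.0 and 44.0 CPM across control libraries 1 to 3. Control library 2 was 1.01-fold the highest of the other 5, so only control library 1 stood apart. The log2 fold change of Chrnb2 was -0.73 (SE 0.38, adjusted p = 0.42), and without control library 1 it was -0.03.

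Chrna7, whose product binds alpha-bungarotoxin, varied least of the 10. Its record (NM_012832) lies on chromosome 1 from 125029451 to 125158153. Chrna7 read 24.8, 23.4, 17.5 and 20.8 CPM across VNS libraries 1 to 4, against 12.4, 23.2 and 20.2 CPM across control libraries 1 to 3, a 2.00-fold span over all 7. Here control library 2 was as high as the Neurod6-bearing libraries, and control library 1 was the lowest. The log2 fold change was 0.22 (SE 0.23, adjusted p = 0.66).

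Chrna5, Chrna3 and Chrnb4 are neighbours on chromosome 8, within 66986 bases from 58143974 to 58210959 (rn5), and all were low. Chrna5 (NM_017078, plus strand) measured 2.74, 8.11, 6.71 and 8.84 CPM across VNS libraries 1 to 4, against 3.10, 2.81 and 8.37 CPM across control libraries 1 to 3. Its low libraries were VNS library 1 and control libraries 1 and 2. Chrna3 (NM_052805, minus strand) was at 0.104, 1.46, 1.63 and 1.39 CPM after VNS and at 2.22, 0.761 and 1.24 CPM in controls. Chrnb4 (NM_052806, minus strand) was at 0.0296, 0.680, 0.813 and 0.694 CPM after VNS and at 0.367, 0.435 and 0.331 CPM in controls. Both genes were lowest in VNS library 1, where their values rest on 7 and 2 counts. The log2 fold changes were 0.47 for Chrna5 (SE 0.51, adjusted p = 0.67), -0.39 for Chrna3 (SE 0.80, adjusted p = 0.84) and 0.41 for Chrnb4 (SE 0.88, adjusted p = 0.85). With 2 to 28 counts per library, the values of Chrnb4 rest on the fewest counts of the 10. With raw library totals in place of TMM, the control mean was above the VNS mean for Chrna5 (6.22 and 5.68 CPM), Chrnb4 (0.520 and 0.417 CPM) and Chrna7 (25.4 and 20.6 CPM), the reverse of the fitted direction.

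Both libraries with Neurod6 under 5 CPM lay below all 5 others for Chrm1, Chrm3 and Chrm4, 3 of the 10 genes, as for 18.3% of all tested records. They lay above all 5 for another 3, Chrm2, Chrna4 and Chrnb2, as for 17.3% of records. The fold changes of the receptor genes depended on the control libraries used. Control library 3 lay within the range of the 4 VNS libraries for 10 of the 10 genes, and for 73.5% of all tested records. For Chrm3, Chrm4, Chrna3 and Chrnb4 this held only because VNS library 1 widened the range. Control library 3 was above the other VNS libraries for Chrm3 and below them for Chrm4, Chrna3 and Chrnb4. Without control libraries 1 and 2, the log2 fold changes of the 10 genes ran from -0.36 (Chrna5) to 0.58 (Chrnb4), with an adjusted p of 0.99995 for each. In that fit Chrm1 was at 0.05 (SE 0.21), Chrm4 at 0.13 (SE 0.32), Chrm2 at -0.20 (SE 0.46) and Chrna4 at -0.05 (SE 0.77). It rests on 1 control library, which is assumed to vary like the VNS libraries, and 0 of 13111 records passed (0.801% at an unadjusted p under 0.05).

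Without control library 3, by contrast, 1377 of 12931 records passed (10.6%, and 26.8% had an unadjusted p under 0.05), and 4 of the 10 receptor genes were among them. On the log2 scale Chrm1 was at 5.53 (SE 0.64) and Chrm4 at 2.99 (SE 0.49), both called higher after VNS, as were 6.24% of all records tested. Chrm2 was at -2.05 (SE 0.33) and Chrna4 at -2.52 (SE 0.66), both called lower, as were 4.41% of all records. The controls left in this fit are those with Neurod6 under 5 CPM, so its calls repeat that split and are no separate support. In that comparison every control library is one whose summed forebrain markers were below those of every VNS library, so stimulation and tissue identity cannot be told apart.

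**Figure D2:**
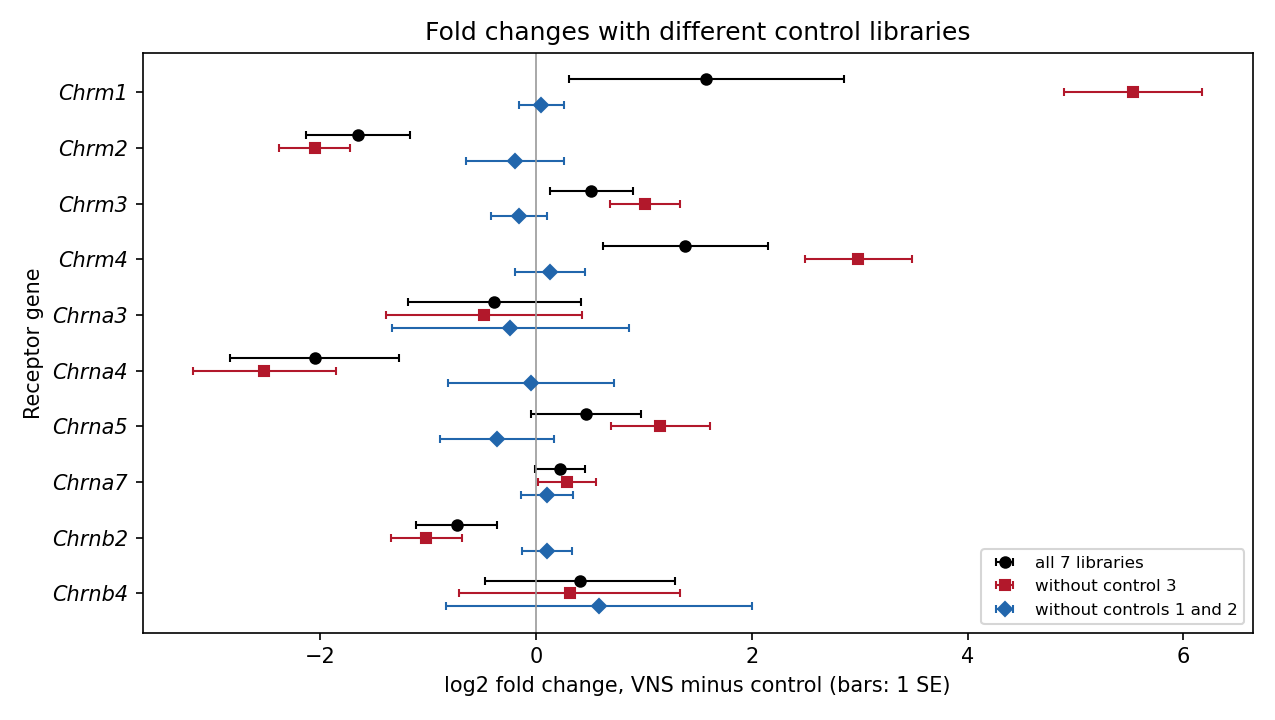
Log2 fold change, VNS minus control, of each receptor gene with 1 SE, from all 7 libraries, without control library 3 and without control libraries 1 and 2. Chrm1 runs from 5.53 without control library 3 to 0.05 without control libraries 1 and 2.

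Levels of different genes were compared per kilobase of record. Records differ in how much untranslated sequence they hold, which such a comparison cannot correct. In the VNS libraries Chrm1 led at 69.0 ± 7.41 CPM per kilobase (SD, n = 4), followed by Chrnb2 at 21.6 ± 3.14, Chrm3 at 17.6 ± 3.75 and Chrna7 at 14.3 ± 2.13. Chrm4 stood at 8.74 ± 2.40, Chrna4 at 7.70 ± 4.78, Chrna5 at 2.20 ± 0.905 and Chrm2 at 1.69 ± 0.551 on the same scale. Chrna3 at 0.762 ± 0.467 and Chrnb4 at 0.372 ± 0.238 CPM per kilobase closed the order. Neighbours in this order overlapped in their VNS ranges except Chrm1 with Chrnb2 and Chrna7 with Chrm4.

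The order in control libraries 1 and 2 was different. There Chrna4 was at 64.2 and 23.3 CPM per kilobase and Chrnb2 at 63.6 and 24.2, the highest pair of the 10 genes in both. Chrm1, first in every other library, ranked 6 in control library 1 at 2.55 CPM per kilobase and 9 in control library 2 at 0.459. Summed over the 10 genes, the level was 337.9 CPM in control library 1 and 202.6 in control library 2, against 266.5 to 306.2 in the other 5. Each of the 10 genes had counts in each of the 7 libraries, so these are differences in relative level.

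Ratios within a library do not depend on the scaling between libraries. The ratio of Chrm1 to Chrm2 per length was 75.4, 41.4, 35.6 and 28.9 in VNS libraries 1 to 4 and 34.6 in control library 3. It was 0.473 in control library 1 (95% exact binomial interval 0.398 to 0.560) and 0.0537 in control library 2 (0.0372 to 0.0752). Chrm1 thus exceeded Chrm2 in 5 libraries, and the reverse held in control libraries 1 and 2. Chrm1 to Chrm3 ran from 3.38 to 4.34 in the 5 libraries, a narrow range, and was at 0.468 and 0.0378 in control libraries 1 and 2. Chrm1 to Chrm4 ran from 5.67 to 13.7 in the 5 libraries, highest in VNS library 1, and was at 1.53 and 0.872 in control libraries 1 and 2. These intervals cover counting error only. In 6 libraries they are likely too narrow, because an excess of even counts there is what read mates counted separately would give. How mates were counted was not examined. VNS library 1 did not carry that excess to the same degree, as described further on.

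The ratios with Chrna4 differed among 3 sets of libraries, and that of Chrnb2 to Chrnb4 did not separate the controls. Chrna4 to Chrnb2 per length was 1.01 and 0.965 in control libraries 1 and 2, and 0.557, 0.436, 0.388 and 0.390 in VNS libraries 2, 3 and 4 and control library 3. In VNS library 1 it was 0.0687 (95% interval 0.0599 to 0.0785). Chrna4 to Chrna7 was 7.82 and 1.52 in control libraries 1 and 2, 0.587 to 0.858 in the 4 intermediate libraries and 0.0987 in VNS library 1. Chrnb2 to Chrnb4 was 258.4 and 82.8 in control libraries 1 and 2, and 90.2 in control library 3. It was 52.2, 31.2 and 46.7 in VNS libraries 2 to 4 and 1184 in VNS library 1 (327.6 to 9784, from 2 counts of Chrnb4).

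**Figure D3:**
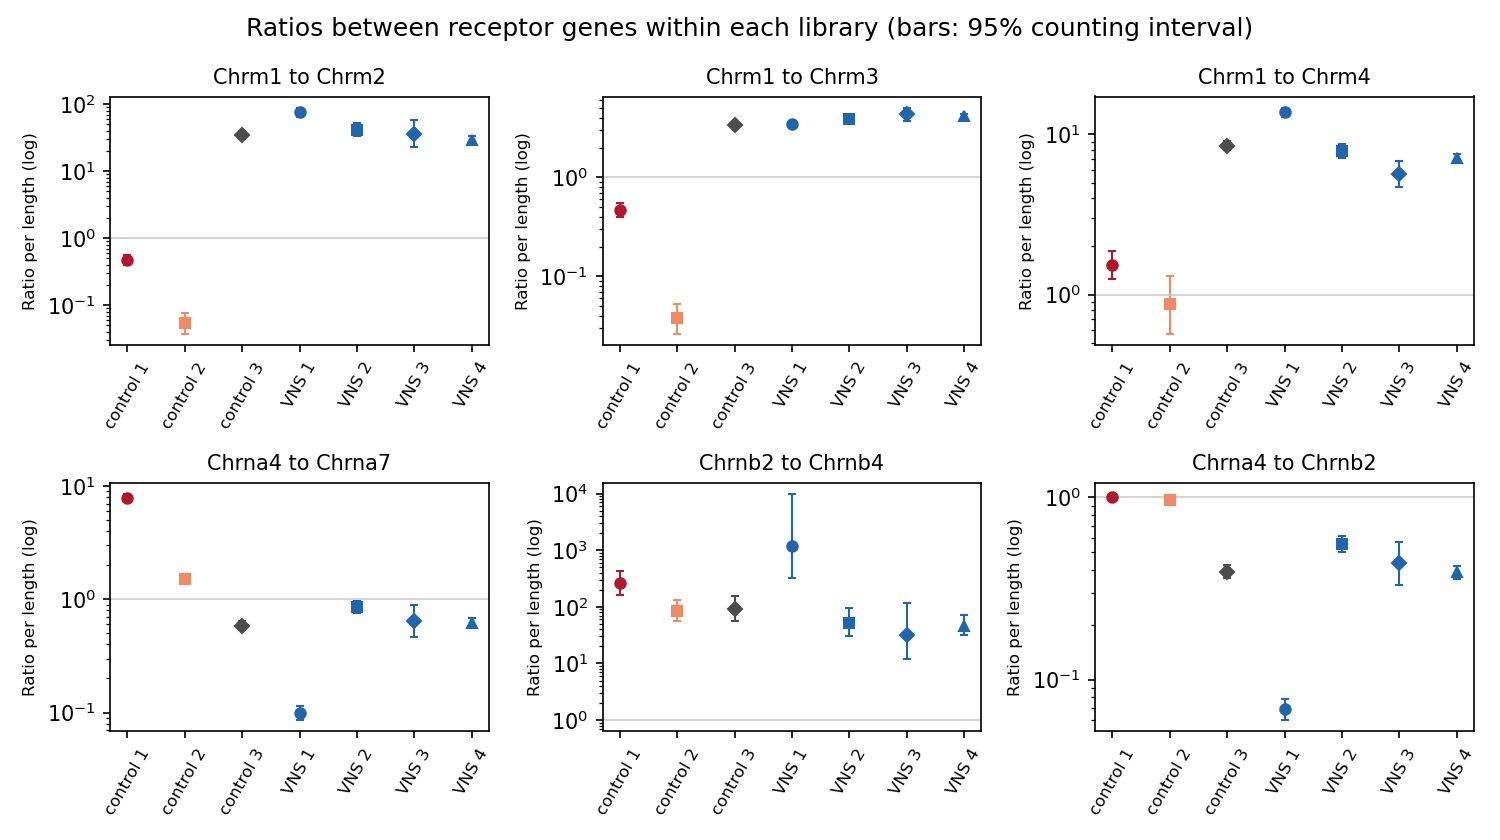
Ratio of the levels per length of 6 pairs of receptor genes in each of the 7 hippocampal libraries (log axes), with 95% counting intervals. Control libraries 1 and 2 depart from the rest in the 3 muscarinic ratios and in the ratios of Chrna4 to Chrnb2 and to Chrna7. VNS library 1 lies at one end of each of the 3 nicotinic ratios. It is also highest for Chrm1 to Chrm2 and Chrm1 to Chrm4.

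VNS library 1 was at one end of the Neurod6-bearing libraries for 9 of the 10 genes, muscarinic and nicotinic, a feature noted after the values were seen. Of the 5 such libraries it was the lowest for 6 of the 10 genes (Chrm2, Chrm4, Chrna3, Chrna4, Chrna5 and Chrnb4), where it was the lowest for 21.2% of all tested records. It was the highest for 3 (Chrm1, Chrm3 and Chrna7), against 22.1% of all tested records. Marker genes moved too. C1ql2, a dentate granule cell gene, had 4.58 CPM here and 44.9 to 63.4 CPM among the other 4, while Wfs1 and Fibcd1, genes of CA1 pyramidal cells, were highest there at 487.5 and 274.1 CPM. Neurod6 was also highest there, at 207.4 CPM. Hypothalamic markers summed to 51.7 CPM in VNS library 1 and to 3.13 to 8.13 CPM in the other 4, with Trh alone at 44.3 CPM. The same sum was 55.5 CPM in control library 1 and 9.89 CPM in control library 2, so a high sum was not particular to VNS library 1. The library differed technically as well: 53.2% of its counts between 1 and 50 were even numbers, against 69.7% to 73.8% in the other 6. Such an excess of even counts is what read pairs counted mate by mate would give, which was not examined. The part of the markers or of this counting feature in the receptor levels was not tested. In bulk tissue, fewer cells of a type and less RNA per cell cannot be told apart.

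Other acetylcholine receptor genes were mostly near the limit of detection. Of 11 such genes, 6 could be tested and 0 passed, with 0 higher and 1 lower at an unadjusted p under 0.05, beside 4.79% and 7.28% of all tested records. Chrm5, the remaining muscarinic gene, had 8.92, 3.59, 7.93 and 8.35 CPM across VNS libraries 1 to 4, against 1.45, 4.53 and 5.84 CPM across control libraries 1 to 3. Chrnb3, a subunit gene of midbrain dopamine neurons and retina, had the smallest p of this list (log2 fold change -4.05, SE 1.65, adjusted p = 0.40). Control libraries 1 to 3 gave 14.5, 0.906 and 0.0414 CPM, and the VNS libraries 0 to 0.680 CPM. Chrna6, which assembles with it and was picked out after its values were seen, reached 9.27 CPM in control library 1 and 0.652 CPM in control library 2, and 0.0971 CPM or less elsewhere. Control library 1 also held the dopamine neuron genes Th and Slc6a3 at 47.6 and 73.7 CPM, against at most 1.54 and 0.833 CPM in any other library. Chrne, a muscle subunit gene, had the next smallest p in this list (log2 fold change 1.67, SE 0.77, adjusted p = 0.40), at 8 to 32 counts per library.

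None of the genes that make, load or break down acetylcholine passed either. Of 7 genes, 6 could be tested and 0 passed, and 4 were lower after VNS at an unadjusted p under 0.05, beside 7.28% of all tested records. The median log2 fold change was -1.10. Slc5a7, the choline transporter of cholinergic terminals, had 8.61, 2.83 and 1.70 CPM across control libraries 1 to 3, against 1.27, 0.728, 0.813 and 0.991 CPM across VNS libraries 1 to 4. Here the groups did not overlap, as for 9.28% of all tested records, and control library 3 was also above every VNS library. Its log2 fold change was -2.15 (SE 0.56, adjusted p = 0.40). Prima1, which anchors acetylcholinesterase in the membrane, was at 26.7, 19.6 and 8.70 CPM in controls and at 5.79, 9.27, 4.68 and 9.71 CPM after VNS (log2 fold change -1.29, SE 0.39, adjusted p = 0.40). Ache, the esterase gene, was at 129.9, 130.5 and 43.1 CPM in controls and at 48.6 to 56.8 CPM after VNS (-0.91, SE 0.34, adjusted p = 0.40), so control library 3 was below every VNS library. Bche, the gene of butyrylcholinesterase, also had groups that did not overlap, at 6.80, 6.83 and 5.82 CPM in controls and 1.63 to 4.37 CPM after VNS (-0.84, SE 0.30, adjusted p = 0.40). It was picked out after its values were seen. Chat, which makes acetylcholine, reached 3.60 CPM in control library 1 and 0.407 CPM or less elsewhere, and was not tested. Slc18a3, the vesicular transporter, was at 2.44, 0.181 and 0.828 CPM in controls and at 0 to 0.942 CPM after VNS (-1.86, SE 1.25, adjusted p = 0.49). Isl1, a transcription factor gene of forebrain cholinergic and other neurons that was picked out after its values were seen, reached 8.15 CPM in control library 1 and 0.0593 CPM or less elsewhere.

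Genes downstream of the receptors were examined next. Among 19 genes of muscarinic G protein signalling, all tested, 0 passed, and at an unadjusted p under 0.05 there were 3 higher and 1 lower, beside 4.79% and 7.28% of all tested records (median log2 fold change 0.16). Plcb4, the phospholipase C gene of thalamus and cerebellum, had 398.0, 167.8 and 26.2 CPM across control libraries 1 to 3, against 14.1 to 43.2 CPM after VNS (-2.91, SE 0.76, adjusted p = 0.40). Plcb1, its counterpart in forebrain neurons, was at 83.2, 122.1 and 256.6 CPM in controls and at 230.3 to 350.1 CPM after VNS. Plcb4 was thus highest, and Plcb1 lowest, in control libraries 1 and 2. Plcb1 was picked out after its values were seen. Apart from Gna11 the other genes of this list are not shown, so the pair does not stand for the list. Gna11, a Gq-family alpha subunit, was at 26.8, 32.2 and 50.6 CPM in controls and at 45.0 to 69.9 CPM after VNS (0.66, SE 0.24, adjusted p = 0.40).

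Among 10 genes that assemble or modulate nicotinic receptors, 6 records could be tested and 0 passed, with 1 higher and 1 lower at an unadjusted p under 0.05, beside 4.79% and 7.28% of all tested records. Ly6e was at 24.3, 34.9 and 66.6 CPM in controls and at 65.2 to 104.9 CPM after VNS (1.004, SE 0.34, adjusted p = 0.40). Lynx1, which damps nicotinic responses, was at 381.6, 334.8 and 224.7 CPM in controls and at 191.5 to 237.1 CPM after VNS (-0.49, SE 0.20, adjusted p = 0.40). Tmem35a, the chaperone gene needed for assembly of Chrna7 channels, was at 38.4 to 75.8 CPM in all 7 libraries. The medial habenula, where Chrna3 and Chrnb4 are abundant, had Gpr151 and Nhlh2 as usable markers, since reads of Tac1 are shared by its several records. Gpr151 was at or below 0.754 CPM in every library. Nhlh2 reached 8.35 CPM in control library 1 and 5.63 CPM in control library 2, against 0.149 to 1.46 CPM elsewhere.

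**Figure D4:**
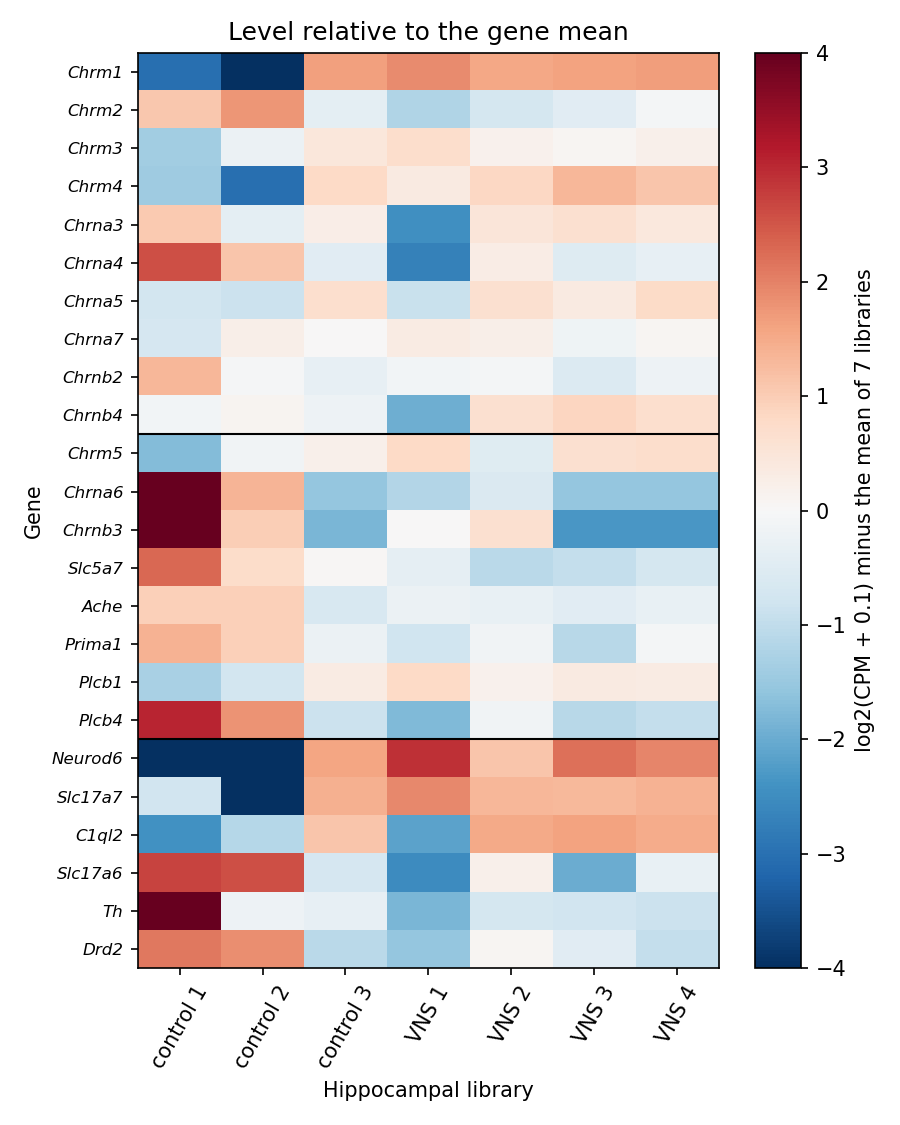
Level of the 10 receptor genes, 8 further acetylcholine genes and 6 region markers in each library, as log2(CPM + 0.1) minus the gene's mean over the 7 libraries. In control libraries 1 and 2, Chrm1, Chrm4, Neurod6 and Slc17a7 lie below their means (blue), and Chrm2, Chrna4 and Slc17a6 above them (red). Colours stop at 4 in either direction.

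The records most like each receptor over the 7 libraries were found by the root mean square difference of centred log2 CPM, which has no test here. For Chrm1 and Chrm4 the spread over the 7 libraries lay mostly with control libraries 1 and 2. Chrnb4 and Chrna5 varied as much within the other 5 libraries (27.4-fold and 3.23-fold) as over all 7, and Chrna3 varied 15.7-fold within the 5 and 21.4-fold over all 7, with VNS library 1 lowest of the 5 for each. For Chrm1 they included Ddn (0.31) and Itpka (0.39), both genes of forebrain dendrites. For Chrm4 they were Synpo (0.27), Rspo3 (0.33) and Camk2a (0.37). Those of Chrm2 were Sv2c (0.23), Slc16a10 (0.26) and Tppp3 (0.29), and those of Chrna4 were Klhdc8a (0.40), Grm4 (0.43) and Prkg2 (0.47). Those of Chrm3 were Dok4 (0.14), Sptb (0.15) and Pcdh20 (0.16), those of Chrna5 Sdcbp2 (0.18), Col23a1 (0.22) and Nuak1 (0.28), and those of Chrnb2 Fam20c (0.11), Spock1 (0.12) and Plekhd1 (0.13). Chrna7, which varied little, had Prkar1b (0.079), Hmgcs1 (0.098) and Lpcat1 (0.10). The low genes Chrna3 (Kcnf1 0.44, Slc22a6 0.47 and Zdhhc22 0.65) and Chrnb4 (Plk5 0.54, Niban3 0.60 and Crb3 0.64) had more distant ones. The nearest receptor gene to Chrna3 was its chromosomal neighbour Chrnb4 (0.60), and the reverse held, whereas Chrna5 was nearest to Chrm3 (0.77).

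The cortex tables could not answer the same question for these genes. Cortex libraries held 329130 to 435296 counts, and the 10 receptor records together 11 to 44 counts in any of the 8 libraries. Over all 8, Chrm4 had 80 counts, Chrm3 49, Chrnb2 43, Chrna4 39, Chrm1 26, Chrna3 21, Chrm2 6 and Chrna5 4, while Chrna7 and Chrnb4 had 0. Only Chrm4 passed the filter. It had 6, 4, 15 and 6 counts in VNS libraries 1 to 4 and 3, 19, 10 and 17 in control libraries 1 to 4, and VNS minus control was -0.64 on the log2 scale (SE 0.56, adjusted p = 0.99975). The VNS and control counts overlapped. In that fit 1 of 3884 records passed (0.0257%), and 2.39% had an unadjusted p under 0.05 (1.18% higher and 1.21% lower after VNS). The groups were apart for 2.29% of records. Cortex reads were counted with strand option 1 per the file header. Whether that option matched the stranded kit was not tested here, so a cortex count is not read as a level of the named gene.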

How the data were processed

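Libraries were ribosome-depleted total RNA in hippocampus and polyA-selected RNA in cortex, per the labels. The deposited values are raw read counts per RefSeq transcript record on rn5, made with featureCounts v1.4.6-p2 per the file headers, with strand option 1 in cortex, none in hippocampus and no paired-end option. The submitters' processing notes also list Bowtie2, Trimmomatic and edgeR, beside SAMtools 0.1.19 and FastQC 0.10.1. The deposited record length, in bases, gave levels per kilobase. A cortex column whose name carried an extra final letter was given to the sample it otherwise matches. Symbols came from a RefSeq table of GRCr8 by accession (17339 of 18278 records). All 10 members matched, each with 1 record overlapping no other. The headers show no option for reads that overlap more than 1 record, which featureCounts then leaves unassigned.

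Each tissue was fitted alone in R 4.3.3 with edgeR 4.0.16 (filterByExpr with minimum count 10 and minimum total 15, TMM, glmQLFit, glmQLFTest, two-sided, Benjamini-Hochberg, threshold 0.05). CPM uses TMM-scaled library sizes. On simulated hippocampal counts (12543 records), 21.0% of 2-fold and 75.0% of 4-fold changes were recovered, and in cortex (3538 records) 37.9% and 91.6%. Apart from the set changes, simulated libraries shared a common mean per record, with bounded dispersion. They lacked the shared departure of hippocampal control libraries 1 and 2, so the hippocampal shares may not hold for genes that differ there. Alternatives used DESeq2 1.42.0 and limma 3.58.1, other filters and scalings, and left-out libraries.

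Named were the 10 members, Chat, Slc18a3, Slc5a7 and Ache, the 2 genes with the smallest p in each further list, fixed region markers and the 3 records most like each member. A gene that this rule names is not reported here. Members, lists and alternatives were chosen with earlier results of these data known.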

Additional observations from a re-analysis of the deposited data

Results flagged for a closer look

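Of 29 sets of 4 libraries checked for a library far from the others, 4 had one, and chance alone gives about 1 in 20. In the VNS hippocampus, Chrna3 in library 1 was at 0.104 CPM (7 counts), far below the other 3 libraries at 1.39 to 1.63 CPM. Chrnb4 in the same library was at 0.0296 CPM (2 counts), against 0.680 to 0.813 CPM. The ratio of Chrnb2 to Chrnb4 per length was 1184 in that library, against 31.2 to 52.2 in the other 3, and shares its Chrnb4 count with the previous value. Slc18a3 in VNS library 4 was at 0.942 CPM, against 0 to 0.0971 CPM in the other 3. That library had Chat at 0.0991 CPM and Slc5a7 at 0.991 CPM, both inside the range of the other VNS libraries. The part of tissue composition in these values was not tested.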

How the results depend on the processing

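Over 16 other settings, the 10 receptor genes gave 159 further fold changes. Of these, 149 kept their direction and did not pass the threshold, among them Chrm1 with DESeq2 (1.57), which had no adjusted p. A further 4 passed it (Chrm1, Chrm2, Chrm4 and Chrna4 without control library 3) and 6 changed sign. Those 4 repeat the split on Neurod6 and are no separate support. A kept direction did not mean a like size: limma-voom gave Chrm1 4.10 and Chrm4 2.11 (1.58 and 1.38 with edgeR), and without control library 1 Chrna4 was at -1.03, Chrm3 at 0.16 and Chrna7 at 0.00054. None of the values that changed sign had passed. They were Chrnb4 with limma-voom (-0.85), Chrm3, Chrna5 and Chrnb2 without control libraries 1 and 2 (-0.16, -0.36 and 0.10), and Chrna3 without VNS library 1 (0.07) or control library 1 (0.10). Leaving out 1 library moved Chrna3 between -0.69 and 0.10. The cause was not tested. Chrnb4 failed the 1 CPM filter and has no value there. Receptor records at an unadjusted p under 0.05 numbered 2 with all libraries, 4 with limma-voom, 0 without control libraries 1 and 2, and 1 to 7 when 1 library was left out (7 without control library 3, where 26.8% of all tested records reached it, and 14.8% of all with limma-voom). Hippocampal records called numbered 17 with DESeq2 and 0 to 1377 when 1 library was left out. In cortex 1 record was called, 5 with no filter, 6 with the 1 CPM filter, 0 with limma-voom and 0 to 4 when 1 library was left out. Of 40 group means under other scalings, 38 moved by under 1 SD of their group, a wide bound where the control libraries differ. Among the 38 were the control means of Chrna4, from 67.7 to 95.6 CPM, and Chrnb2, from 78.8 to 109.6 CPM, with raw library totals. Those of Chrna7 and Chrnb4 in controls moved further and became 25.4 and 0.520 CPM with raw library totals. With those totals the order of the group means turned for Chrna5, Chrna7 and Chrnb4. No paired analysis was possible because the labels carry no replicate numbers. Low counts limit Chrna3, Chrnb4 and every cortex value. VNS library 1, where Chrna3 and Chrnb4 were lowest, held the most counts of the hippocampal libraries.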
